A study of Mus musculus with 9 samples.

Results

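Caloric restriction at 20 months was examined in tumour-derived cells pulled out with magnetic beads against CD8a. The tumours were grown from MC38, a mouse colon carcinoma line. Male C57BL/6N mice of 20 months, labelled wild type, had been fed ad libitum or given 70% of the mean ad libitum intake, and each group had 3 libraries. Tumours were taken 21 days after injection under the skin. They were dissociated enzymatically, with dispase and collagenase D, and the red cells were lysed ahead of the bead step. Wild-type males of 5 months fed ad libitum gave 3 more libraries, which entered the fit for the estimate of the spread. Their values are printed beside the others for some genes only, and restricted mice were not tested against them here. The libraries read the 3′ end of polyadenylated transcripts. Genes with at least 10 counts in 3 or more of the 9 libraries were kept, which gave 8956 genes of the 14418 with any count and of the 25361 in the deposited table.

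Caloric restriction lengthens life in mice and changes metabolism, stress hormones and immunity. Macrophages in a tumour engulf dying cells, break them down in lysosomes and show fragments of the digested proteins on MHC class II. They also secrete complement and chemokines, and they take on different states in response to cytokines and tissue signals. Tumour blood vessels depend on endothelial receptors for VEGF and on a basement membrane made largely of collagen IV and laminin.

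The labels call the cells CD8+ T cells, and the transcripts of that identity were scarce. Cd8a encodes the chain recognised by the beads. It had 59, 4 and 32 counts in ad libitum replicates 1, 2 and 3, and 47, 51 and 53 in the restricted replicates. The list of 23 T cell identity genes summed to 867, 385 and 426 CPM (counts per 1e6 counts of the library total) in the ad libitum libraries. Its sums in the restricted libraries were 760.1, 557 and 735 CPM. The list of 24 monocyte and macrophage genes stood far above it, at 7506, 2800.4 and 4726 CPM against 11656, 10560.4 and 11196 CPM, and all its genes had counts. The groups overlapped on the T cell list and did not overlap on the macrophage list, where ad libitum replicate 2 was lowest. Every level below is over all cells recovered, so fewer cells of a type and less RNA per cell cannot be told apart, and the part of cell makeup in the results was not tested. The cell that made a transcript was not observed; the cell named with a gene is the one the gene is known from.

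Library totals ran from 810662 to 908514 counts in the ad libitum group and from 1091933 to 1258575 in the restricted group. Mitochondrially encoded genes took 30.9% to 42.4% of the counts in the first group and 23.5% to 45.7% in the second, with restricted replicate 2 lowest of all. Gene levels are given in TMM-scaled CPM, in which one count was worth 0.649 to 1.33 CPM in these 6 libraries. Restricted replicate 2 stood apart from its group: the chi-square per degree of freedom of its counts was 21.1 against replicate 1 and 13.8 against replicate 3, and 6.15 between those replicates.

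Genes of macrophages, antigen presentation, lysosomes and complement were among those that rose with restriction, and genes of vessels, basement membrane and very long transcripts were among those that fell. The comparison called 93 genes at an adjusted p under 0.05 (edgeR quasi-likelihood F-test with Benjamini-Hochberg adjustment over the 8956 genes). Of these, 67 were higher in restricted mice, which is 0.748% of the genes tested, and 26 were lower, which is 0.29%. The median log2 fold change over all genes was 0.00, and 50.1% of them had a fitted level that was higher with restriction. The 3 libraries of one group lay beyond the 3 of the other for 91 of the 93 genes; the exceptions, Npc2 and Ctsd, are lysosomal. Over all genes, 9.36% had every restricted library above every ad libitum library and 8.46% had every one below. Calls depended on single libraries: 27 genes were called without ad libitum replicate 2, 31 without restricted replicate 1, 42 without ad libitum replicate 3 and 148 without restricted replicate 2. Of the called genes, 18 kept their call under all 18 alternatives, among them C1qb, Cd74, Col4a2, Ctss, Dusp1, Fcgr4, Gpx3, Itm2b, Ly6a, Retnla, Selenop, Serinc3, Sla, Sox4, Sparc, Syne1 and Tmem86a.

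**Figure D1:**
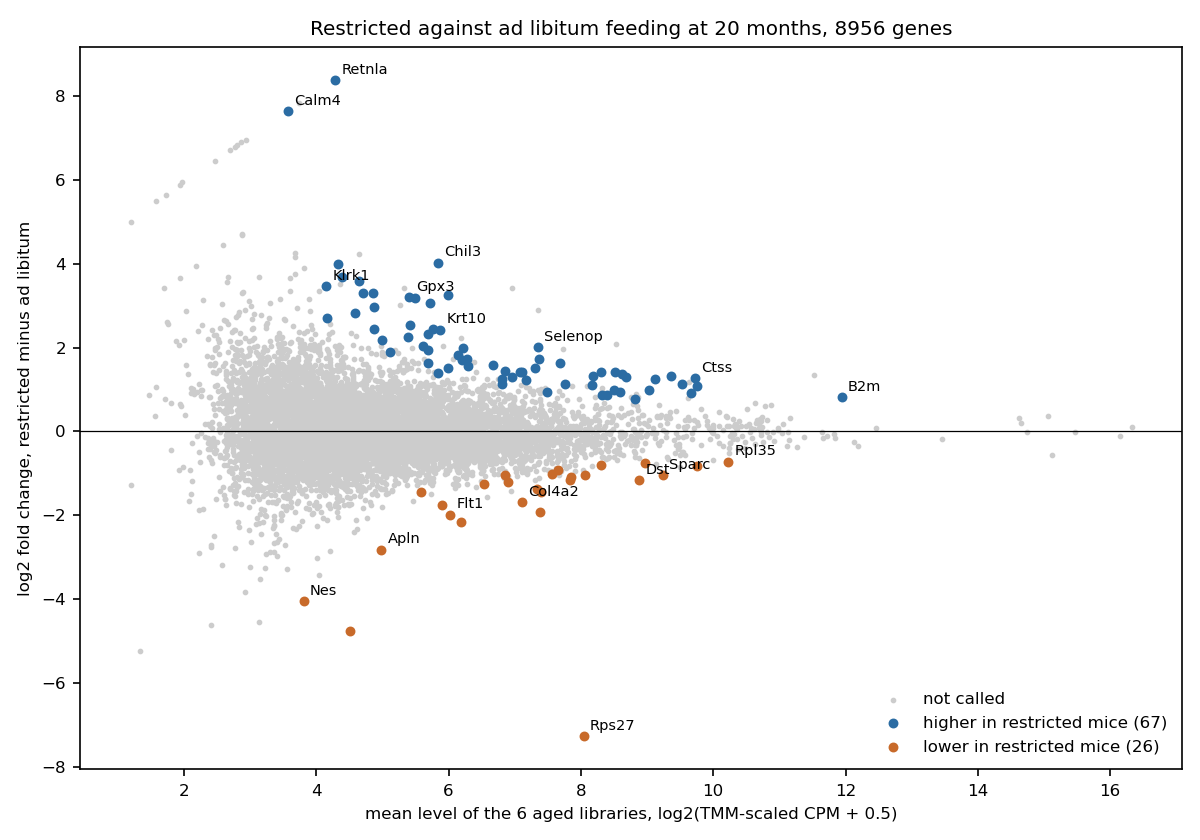
Each point is one of 8956 genes; the x axis gives the mean level of the 6 libraries of 20-month mice as log2(TMM-scaled CPM + 0.5) and the y axis the fitted log2 fold change, restricted minus ad libitum. The 67 genes called higher are blue and the 26 called lower are orange; Retnla and Calm4 had 0 counts in all ad libitum libraries, so their plotted change is a fitted value and not a bound.

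Genes that identify macrophages leaned one way, with higher fitted levels in restricted mice. Of 24 monocyte and macrophage genes, all of them tested, 7 rose and none fell, all 24 had a higher fitted level, and the median log2 fold change was 1.07. In 16 of the 24 the restricted libraries all lay above the ad libitum libraries. Csf1r is the receptor for the growth factor on which macrophages depend. Csf1r stood at 254, 195 and 227 CPM in the ad libitum libraries against 451, 365 and 415 CPM in the restricted ones (log2 fold change 0.86 ± 0.22, SE; edgeR adjusted p = 0.049). Adgre1 encodes F4/80, the adhesion receptor used to identify mouse macrophages. Its levels were 28.2, 3.99 and 30.5 CPM with ad libitum feeding and 90.9, 96 and 56.2 CPM with restriction (log2 fold change 1.93 ± 0.47, edgeR adjusted p = 0.0387). The call of Adgre1 was lost when any restricted library, any young library or ad libitum replicate 2 or 3 was left out, with an adjusted p of up to 0.19 over the alternatives. Csf1r lost its call without any young or ad libitum library and without restricted replicate 1 or 3 (adjusted p up to 0.233). Without ad libitum replicate 2, 3 genes of the list were called, 4 without ad libitum replicate 3 and 3 without restricted replicate 1.

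Several well-known macrophage genes missed the threshold. Apoe, the lipoprotein component that macrophages secrete, stood at 2381, 1175 and 1447 CPM against 5397, 2498 and 4721 CPM (log2 fold change 1.33 ± 0.33, edgeR adjusted p = 0.133), and its groups did not overlap. Cx3cr1, the fractalkine receptor, stood at 119, 77.1 and 107 CPM and at 193, 234 and 166 CPM (edgeR adjusted p = 0.0515). Fcer1g, the signalling adaptor of Fc receptors, stood at 230.4, 73.1 and 141 CPM and at 339.5, 286 and 319 CPM (edgeR adjusted p = 0.0594). All restricted libraries were above all ad libitum libraries for both. Lists of neighbouring cell types held fewer calls. Of 14 tested genes of inflammatory monocytes Chil3, Hp and Thbs1 rose (11 higher fitted, median 1.10), and no gene of that list was called without ad libitum replicate 2 or 3. Of 16 genes of lipid-associated macrophages Ctsd alone rose (12 higher fitted, median 0.95). Without ad libitum replicate 1 or restricted replicate 2 that list had 4 calls; it had none when any other library was left out, and Ctsd kept its call in 8 of 18 alternatives (adjusted p up to 0.295). None of 8 dendritic cell genes and none of 5 neutrophil genes was called by edgeR or DESeq2 (2 and 1 higher at an unadjusted p under 0.05), with medians of 0.46 and 1.04.

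Genes of MHC class II presentation rose. Of 9 tested genes of the class II list 5 rose and none fell, all 9 had a higher fitted level, the median was 1.05, and 8 had no overlap between the groups. Cd74 encodes the invariant chain, which guides class II molecules to the compartment where peptides are loaded. It stood at 452, 234 and 440.2 CPM in the ad libitum libraries and at 1113, 1001 and 718 CPM in the restricted libraries. The groups were apart, with ad libitum replicate 2 lowest, and the log2 fold change was 1.33 ± 0.22 (SE; edgeR adjusted p = 0.00153). H2-Aa encodes the alpha chain and H2-Ab1 and H2-Eb1 encode beta chains of the class II molecules. H2-Aa stood at 692, 376 and 599 CPM against 1367, 1288 and 863 CPM (log2 fold change 1.08 ± 0.20, edgeR adjusted p = 0.00479). H2-Ab1 stood at 541, 484 and 673 CPM against 1266, 1132 and 791 CPM (log2 fold change 0.91 ± 0.18, edgeR adjusted p = 0.00927). H2-Eb1 stood at 411, 287 and 352 CPM against 907, 659 and 502 CPM (log2 fold change 0.97 ± 0.20, edgeR adjusted p = 0.0129). In all of these the restricted libraries were above every ad libitum library, and restricted replicate 1 was highest. The means in mice of 5 months were 1005 ± 32.7 CPM for H2-Aa, 925 ± 62.4 CPM for H2-Ab1 and 682 ± 48.5 CPM for H2-Eb1 (SD, n = 3). Without ad libitum replicate 2 only Cd74 and Ctss of the list were called, and without restricted replicate 1 there were 3 calls. The macrophage list, which shares Ctss with the class II list, was also higher in all restricted libraries. It summed to 2800 to 7506 CPM in the ad libitum libraries and 10560.4 to 11656 CPM in the restricted libraries. No gene of that list had 0 counts in all 6 of these libraries. Within the restricted group, replicate 2 was lowest for the macrophage list, and replicate 3 was lowest for Cd74, H2-Aa, H2-Ab1 and H2-Eb1. The part of the macrophage list in the class II result was not tested.

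The promoters of H2-Aa and H2-Eb1 are shown because both class II genes rose and their windows carry the same short element. The letters run 5′ to 3′ on the gene's strand, from 250 bases before the RefSeq start site to 50 after it (GRCm38.p6), at chr17:34287774-34288073 on the minus strand for H2-Aa and chr17:34305617-34305916 on the plus strand for H2-Eb1. Capitals mark CTGATTGG, the core of the Y box, an inverted CCAAT element that the factor NF-Y is known to bind in class II promoters. It lies 51 to 44 bases before the start of H2-Aa and 62 to 55 bases before that of H2-Eb1.
H2-Aa: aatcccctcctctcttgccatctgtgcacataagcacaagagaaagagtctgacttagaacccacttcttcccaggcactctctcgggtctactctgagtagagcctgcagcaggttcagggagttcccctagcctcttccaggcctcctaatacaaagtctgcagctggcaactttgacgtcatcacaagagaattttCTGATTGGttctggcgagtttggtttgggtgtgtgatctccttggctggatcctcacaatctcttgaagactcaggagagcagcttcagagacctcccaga
H2-Eb1: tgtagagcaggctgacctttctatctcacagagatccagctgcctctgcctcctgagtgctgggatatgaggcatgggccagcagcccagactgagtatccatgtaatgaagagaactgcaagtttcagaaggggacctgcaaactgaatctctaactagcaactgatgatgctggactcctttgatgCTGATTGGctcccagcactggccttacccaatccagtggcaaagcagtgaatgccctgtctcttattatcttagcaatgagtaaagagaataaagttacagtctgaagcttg
On either strand, CTGATTGG was in 4.1% of 32851 RefSeq promoter windows of this length. Of the 7167 tested genes with a window, 6.52% had it in any of their windows. The first share counts windows and the second counts genes, so they are not on the same footing. Among genes with a window, 3 of 50 that rose (H2-Aa, H2-Eb1 and Hif1a) and 2 of 22 that fell (Sox4 and Mthfd2) had it. The share among called genes was thus near that of all tested genes. A match describes the letters and is not evidence of binding.

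Lysosomal hydrolases gave more calls than any other list. Of 31 tested cathepsins and hydrolases 10 rose and none fell, 28 had a higher fitted level and the median was 0.77. The call of Ctss also counts in the macrophage and class II lists. Ctss, a cysteine protease that trims the invariant chain, stood at 676, 329.8 and 479 CPM with ad libitum feeding. It stood at 1508, 938 and 1158 CPM with restriction, where each library was above every ad libitum library (log2 fold change 1.28 ± 0.21, edgeR adjusted p = 0.00199). Grn encodes progranulin, which keeps lysosomes working; it stood at 198, 122 and 178 CPM against 386, 296 and 561 CPM (log2 fold change 1.31 ± 0.24, edgeR adjusted p = 0.00479). Ctsh, an aminopeptidase of the cathepsin family, stood at 105, 62.5 and 76.8 CPM against 275, 206 and 219.6 CPM (log2 fold change 1.51 ± 0.30, edgeR adjusted p = 0.00684). Lgmn, an asparaginyl endopeptidase of late endosomes, stood at 75.5, 58.5 and 90.2 CPM against 189, 165 and 247 CPM (log2 fold change 1.42 ± 0.28, edgeR adjusted p = 0.00747). The groups of Grn, Ctsh and Lgmn were apart. Ctsc, which activates granule proteases, the lysosomal membrane protein Lamp1, the cathepsin inhibitor Cst3, the mannosidase Man2b1, the aspartic protease Ctsd and the cholesterol carrier Npc2 rose by 0.77 (Cst3) to 1.14 (Ctsc) on the log2 scale. For Ctsd and Npc2 the lowest restricted library, replicate 2, lay within the ad libitum range. Ctsb, an abundant cathepsin, did not pass, at 442, 205 and 351 CPM against 662, 548 and 570.1 CPM (edgeR adjusted p = 0.063).

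Many of these calls rested on single libraries. Of the lysosomal list 1 gene, Ctss, was called without ad libitum replicate 2, 3 each without ad libitum replicate 3, restricted replicate 1 or restricted replicate 3, and 4 without any one of the young libraries. With the trend in transcript length removed there were 5. The proton pump and autophagy genes, in a separate list of 30, had no call by edgeR or DESeq2, 4 genes higher at an unadjusted p under 0.05 and a median of 0.32. Atp6v0c, a pump subunit, stood at 215, 138 and 140.2 CPM against 298, 322 and 213 CPM (edgeR adjusted p = 0.164), and its groups overlapped.

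Complement genes were among the rises. Of 19 tested components and receptors 5 rose and none fell, 18 had a higher fitted level and the median was 1.11. C1qa, C1qb and C1qc are also calls of the macrophage list, and C3 is also a call of the fibroblast list. These rises are thus not separate from those lists. C1qa, C1qb and C1qc encode the chains of C1q, the recognition protein of the classical pathway, which macrophages make. C1qb stood at 269, 102 and 223 CPM in the ad libitum libraries and at 634, 386 and 579 CPM in the restricted ones (log2 fold change 1.42 ± 0.26, edgeR adjusted p = 0.00514). The lowest restricted library, replicate 2, was above the highest ad libitum library. C1qa rose by 1.13 ± 0.22 (edgeR adjusted p = 0.00684) and C1qc by 1.38 ± 0.26 (edgeR adjusted p = 0.00684), and in each the ad libitum libraries lay below all restricted ones with replicate 2 lowest in both groups. C3, the central component on which all pathways converge, stood at 6.04, 3.99 and 3.66 CPM against 64.6, 44.8 and 30.7 CPM. That is a log2 fold change of 3.30 ± 0.69 (edgeR adjusted p = 0.0129) from a low level, with 6, 3 and 3 counts in the ad libitum libraries. Cfp encodes properdin, which stabilises the alternative pathway convertase; it stood at 27.2, 6.65 and 21.9 CPM against 113, 45.4 and 75.5 CPM (edgeR adjusted p = 0.049). C1qa, C1qc and C3 lost their calls without ad libitum replicate 2, ad libitum replicate 3 or restricted replicate 1, where 1 gene of the list was called each time. Cfp lost its call in those fits, without restricted replicate 3, without young replicate 1 or 2, and after removal of the length trend (adjusted p up to 0.311).

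Fc receptors and their signalling partners followed. Of 17 tested genes 3 rose and none fell, 16 had a higher fitted level and the median was 1.03. Fcgr4, an activating receptor for IgG, stood at 17.1, 12 and 20.7 CPM in ad libitum libraries. In restricted libraries it stood at 108, 80.5 and 84.3 CPM, well clear of the other group (log2 fold change 2.44 ± 0.42, edgeR adjusted p = 0.00203). Sla, an adaptor that lowers signalling from antigen and growth factor receptors, stood at 4.03, 7.98 and 3.66 CPM against 65.7, 48 and 42.2 CPM (log2 fold change 3.31 ± 0.61, edgeR adjusted p = 0.00401). Sla lies within the thyroglobulin gene Tg on the opposite strand, and Tg averaged 0 CPM of the library total in the ad libitum group and 1.16 in the restricted group. Fcgr3, a low-affinity IgG receptor, stood at 74.5, 23.9 and 52.4 CPM against 217, 125 and 118 CPM (log2 fold change 1.58 ± 0.36, edgeR adjusted p = 0.022). It lost its call without ad libitum replicate 2 or 3 or restricted replicate 1 (adjusted p up to 0.236).

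Retnla and Chil3, markers of alternative activation by interleukin 4 in mice, were among the steepest rises. Of 16 tested genes of alternatively activated and resident macrophages Retnla, Chil3 and Selenop rose and none fell, 15 had a higher fitted level and the median was 1.64. The list of 26 summed to 877, 182 and 517 CPM against 2110.0, 1384 and 1145 CPM of the library total. Retnla, a resistin-like secreted protein, had 0 counts in all ad libitum libraries. In the restricted libraries it stood at 23, 81.1 and 9.66 CPM, 157 counts in all, which is at least 37.4-fold higher when the ad libitum group is set to a floor of 3 counts (edgeR adjusted p = 0.00153). Restricted replicate 2 held most of those counts, and the mice of 5 months stood at 13.1, 10.3 and 18.3 CPM. Chil3, a chitinase-like lectin, stood at 11.1, 1.33 and 6.10 CPM with ad libitum feeding and 138, 25.3 and 158 CPM with restriction. Here restricted replicate 2 was the lowest of its group, and the groups did not overlap (log2 fold change 4.02 ± 0.71, edgeR adjusted p = 0.00684). Chil3 lost its call without ad libitum replicate 2 or 3 (adjusted p up to 0.0746). Selenop, a secreted selenium carrier made by liver and by tissue macrophages, stood at 84.5, 53.2 and 56.1 CPM against 409.6, 203 and 173 CPM (log2 fold change 2.01 ± 0.32, edgeR adjusted p = 0.00153). At 5 months Selenop averaged 56.6 ± 15.3 CPM (SD, n = 3). Cd163, the haemoglobin scavenger receptor, stood at 0, 0 and 7.32 CPM against 99.7, 28.6 and 12.3 CPM without passing (edgeR adjusted p = 0.0644). The order of the restricted libraries thus differed between these genes, with replicate 2 highest for Retnla and replicate 1 highest for Selenop and Cd163.

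**Figure D2:**
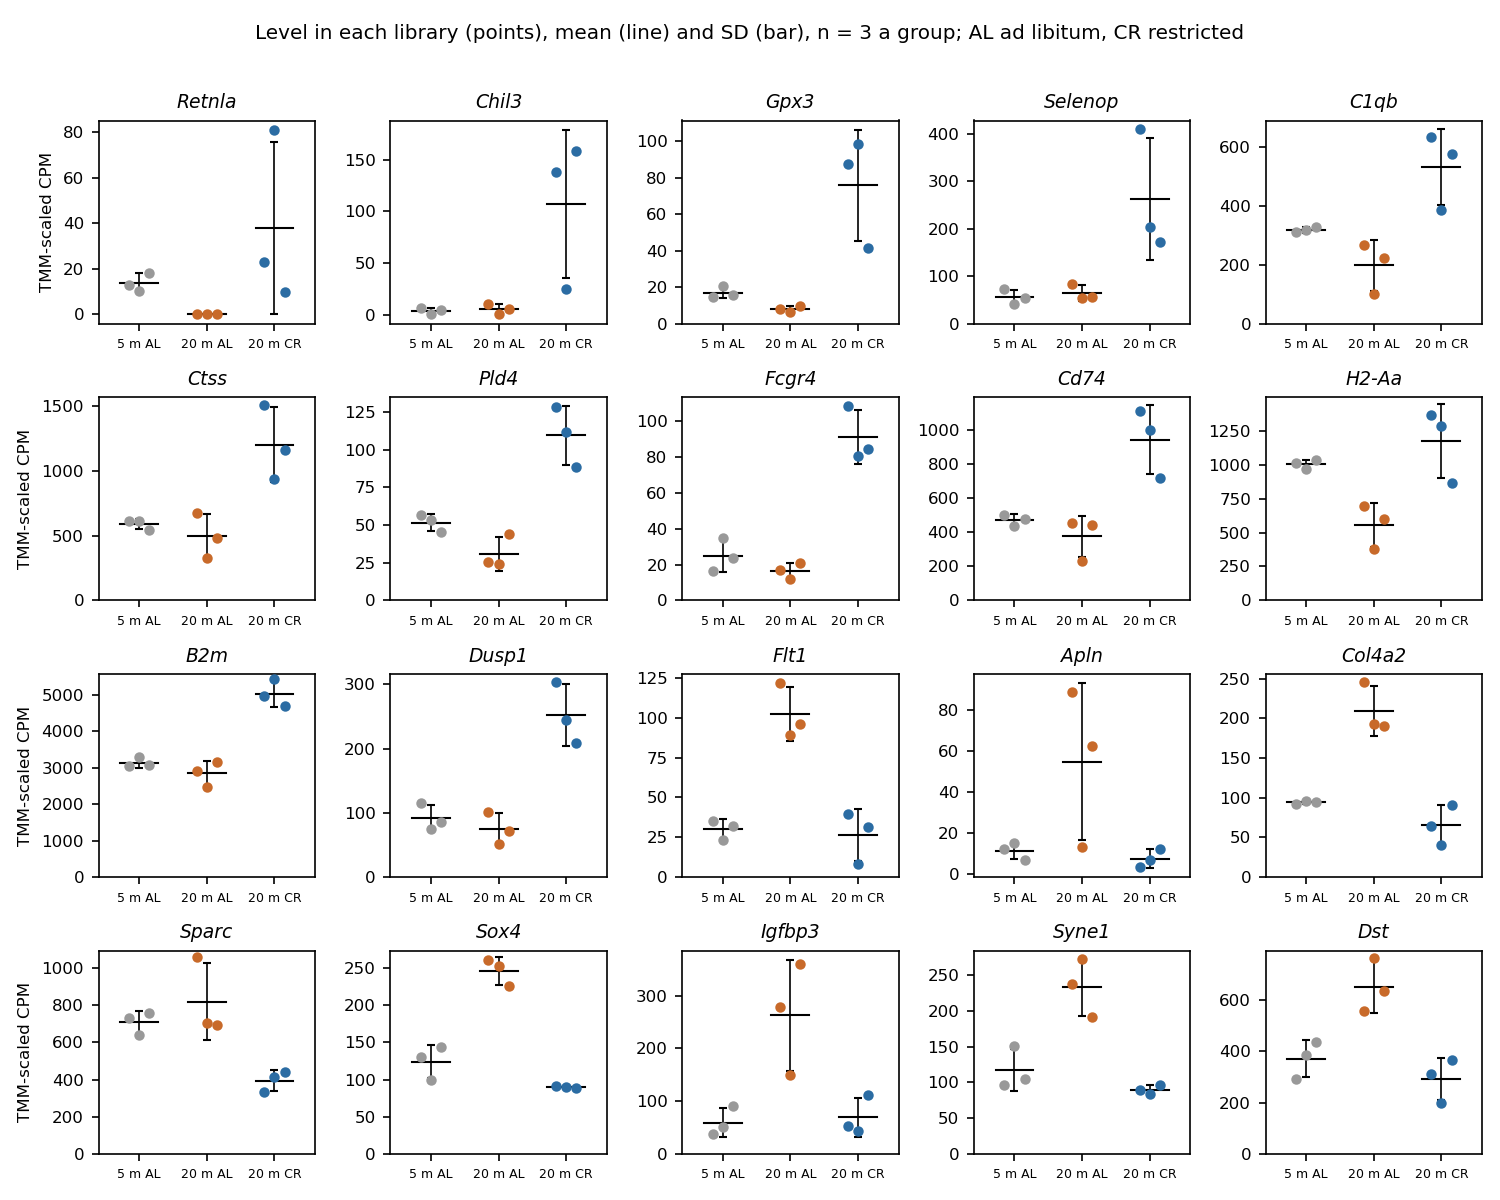
Each panel gives one gene's TMM-scaled CPM in each library (points), with the mean (line) and SD (bar) of 3 libraries a group; AL is ad libitum, CR restricted, and m stands for months. From Retnla to Dusp1 the 3 restricted libraries lie above the 3 ad libitum libraries of 20 months, and from Flt1 to Dst they lie below them.

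Selenoproteins and antioxidant enzymes gave 2 calls among 35 tested genes, Gpx3 and Selenop, with 31 higher fitted and a median of 0.38. Gpx3 is a secreted glutathione peroxidase that contains selenocysteine, whose selenium Selenop delivers. It stood at 8.05, 6.65 and 9.75 CPM in ad libitum libraries and at 87.6, 98.6 and 41.3 CPM in restricted libraries (log2 fold change 3.20 ± 0.50, edgeR adjusted p = 0.00153). The ad libitum libraries lay close together and far below. Prdx5, a peroxiredoxin, stood at 174, 70.5 and 165 CPM against 337, 224 and 245 CPM (edgeR adjusted p = 0.0959). In the list of 15 iron and haem genes Hp rose, with 14 higher fitted and a median of 0.67. Hp encodes haptoglobin, which binds free haemoglobin for uptake through Cd163. It stood at 6.04, 0 and 0 CPM, with 6 counts in replicate 1, against 52.6, 13 and 45.7 CPM (edgeR adjusted p = 0.0445). The call of Hp was lost without any one of 5 libraries, among them ad libitum replicate 2 and restricted replicate 1 (adjusted p up to 0.317). Red blood cell genes moved with Hp: all 5 tested were higher fitted, none was called by edgeR (3 at an unadjusted p under 0.05, 2 called by DESeq2), and the list summed to 108, 81.9 and 60.4 CPM against 395, 189.9 and 319 CPM; their part was not tested.

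Chemokine genes mostly had higher fitted levels in restricted mice and gave 1 call. Of 17 tested chemokines Ccl2 rose, 16 were higher fitted and the median was 0.99. Ccl2, which draws monocytes from the blood, stood at 160, 203 and 359.7 CPM against 452, 537 and 447 CPM (log2 fold change 0.99 ± 0.24, edgeR adjusted p = 0.0361). All restricted libraries were above the highest ad libitum library, replicate 3, but leaving out any library other than that one ended the call (adjusted p up to 0.203). Ccl3, a ligand of the receptor Ccr1, stood at 71.4, 14.6 and 31.7 CPM against 183, 74 and 124 CPM (edgeR adjusted p = 0.0783). Cxcl9, an interferon-gamma-induced ligand of the T cell receptor Cxcr3, stood at 73.5, 45.2 and 69.5 CPM against 171, 158 and 94 CPM (edgeR adjusted p = 0.063). Neither overlapped between the groups. Of 21 cytokine genes none was called by edgeR, 7 were higher at an unadjusted p under 0.05 and 2 were called by DESeq2; 17 were higher fitted, at a median of 0.77. Tnf stood at 3.02, 0 and 6.10 CPM against 71.2, 6.49 and 33.4 CPM (edgeR adjusted p = 0.0559). Il1b stood at 283, 118 and 245 CPM against 342, 602 and 316 CPM (edgeR adjusted p = 0.125). Il10, an anti-inflammatory cytokine, had 0 counts in the ad libitum libraries and stood at 23, 9.73 and 5.27 CPM in the restricted ones (edgeR adjusted p = 0.137). None of 9 chemokine receptors was called by edgeR (1 by DESeq2; 3 higher and 1 lower at an unadjusted p under 0.05; median 0.96). None of 36 interferon-stimulated genes was called by either tool (5 higher and 1 lower at that p; median 0.39).

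Immediate-early and hormone-responsive genes gave 2 calls. Dusp1 is a phosphatase that switches off MAP kinases and is induced by glucocorticoids, which fasting raises. It stood at 102, 51.9 and 71.9 CPM with ad libitum feeding and at 303, 245 and 209 CPM with restriction (log2 fold change 1.74 ± 0.28, edgeR adjusted p = 0.00153). The lowest restricted library was above the highest ad libitum library. Zfp36 encodes tristetraprolin, which destabilises cytokine mRNAs. It stood at 108, 62.5 and 85.3 CPM against 299, 147 and 161 CPM (log2 fold change 1.23 ± 0.30, edgeR adjusted p = 0.0383), and leaving out any library other than ad libitum replicate 1 or restricted replicate 2 ended its call (adjusted p up to 0.368). These were 2 calls of 29 immediate-early genes, of which 22 were higher fitted at a median of 0.55. Of 22 glucocorticoid and fasting genes only Dusp1 passed, 17 were higher fitted and the median was 0.44. Fkbp5, a glucocorticoid receptor co-chaperone and a standard target of that receptor, stood at 10.1, 22.6 and 19.5 CPM against 77.8, 33.7 and 95.7 CPM (log2 fold change 1.99 ± 0.51, edgeR adjusted p = 0.0521). Cebpb, a factor of the fasting and inflammatory responses, stood at 53.3, 41.2 and 47.6 CPM against 148, 82.4 and 119 CPM (edgeR adjusted p = 0.0597). Both had no overlap between groups. Mt2, a metallothionein that glucocorticoids induce, was lower fitted, at 1625, 1400.2 and 1229 CPM against 1130.3, 836 and 1030.3 CPM (edgeR adjusted p = 0.138).

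B2m, the light chain of MHC class I, was the most abundant gene that rose. It stood at 2919, 2475 and 3153 CPM against 4978, 5421 and 4684 CPM (log2 fold change 0.82 ± 0.13, edgeR adjusted p = 0.00153), with each group tight and apart from the other. Scaling by library totals ended the call, at an adjusted p of 0.063. Of 21 class I and immunoproteasome genes it was the only call, with 5 calls without restricted replicate 2; 18 were higher fitted at a median of 0.42. The heavy chain gene H2-K1 stood at 1184, 1139.6 and 1238 CPM against 2017, 1453 and 1682 CPM (edgeR adjusted p = 0.0919). The immunoproteasome subunit Psmb9 stood at 65.4, 121 and 141 CPM against 239.9, 158 and 249 CPM (edgeR adjusted p = 0.0687), also with no overlap.

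Flt1 and Apln, genes of growing blood vessels, fell. Of 17 tested endothelial genes Flt1 and Apln fell and none rose, and all 17 had a lower fitted level, at a median of -1.42. The list of 23 summed to 1122, 380.0 and 838 CPM of the library total against 248, 150.2 and 473 CPM, so the groups overlapped in restricted replicate 3 and ad libitum replicate 2. Flt1 encodes VEGF receptor 1 and stood at 122, 89.1 and 96.3 CPM in the ad libitum libraries. In the restricted libraries it stood at 39.4, 8.44 and 31.6 CPM, all below the lowest ad libitum library (log2 fold change -1.99 ± 0.43, edgeR adjusted p = 0.0163). The mean in mice of 5 months was 30.2 ± 6.32 CPM (SD, n = 3). Apln encodes apelin, a peptide made by the endothelial tip cells of growing vessels. It stood at 88.6, 13.3 and 62.2 CPM against 3.29, 7.14 and 12.3 CPM (log2 fold change -2.82 ± 0.63, edgeR adjusted p = 0.0213), with ad libitum replicate 2 just above restricted replicate 3. Dll4, the Notch ligand of tip cells, stood at 63.4, 25.3 and 29.3 CPM against 1.10, 9.08 and 11.4 CPM without passing (edgeR adjusted p = 0.069). Esm1, a proteoglycan of tip cells, stood at 61.4, 14.6 and 43.9 CPM against 2.19, 3.24 and 18.4 CPM, with overlap (edgeR adjusted p = 0.181).

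The wider angiogenic list had 3 falls among 23 genes, Flt1, Apln and Stc1, with 19 lower fitted and a median of -0.73. Stc1 encodes stanniocalcin 1, a secreted protein induced by hypoxia. It stood at 153, 67.8 and 134 CPM against 11, 24.7 and 43 CPM (log2 fold change -2.16 ± 0.47, edgeR adjusted p = 0.0186), with the groups apart and the mice of 5 months at 19.2 ± 10.7 CPM (SD, n = 3). Without ad libitum replicate 3 no endothelial or angiogenic gene was called. Without ad libitum replicate 1 or restricted replicate 1 each of the 2 lists kept 1 call, Flt1. The adjusted p over the alternatives reached 0.0584 for Flt1, 0.142 for Apln and 0.116 for Stc1. Pericyte genes, 5 tested, had no call by edgeR or DESeq2, 1 lower at an unadjusted p under 0.05 and a median of -1.09. The summed level of the endothelial list moved with Flt1 and Apln, which are its members, and the part of endothelial cell number in their fall was not tested.

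Some basement membrane and matrix genes fell too. Of 17 tested collagens Col4a2 and Col7a1 fell and none rose, 15 were lower fitted and the median was -0.80. The list of 28 summed to 2740, 2342 and 2492 CPM of the library total against 1197, 3019 and 1415 CPM. On this scale restricted replicate 2 was the highest of these 6 libraries. Its rank depends on the scale, since it had the lowest mitochondrial share, 23.5%, and a TMM factor of 1.22 that the sums do not apply. Col4a2, a chain of basement membrane collagen IV, stood at 246, 193 and 190.2 CPM in ad libitum libraries and at 64.6, 40.9 and 91.4 CPM in restricted libraries (log2 fold change -1.68 ± 0.29, edgeR adjusted p = 0.00203). The groups were far apart. Its partner chain Col4a1 stood at 330.1, 249 and 240.2 CPM against 137, 94.7 and 166 CPM, also with no overlap, and did not pass (log2 fold change -1.05 ± 0.28, edgeR adjusted p = 0.0628). Col7a1, the anchoring fibril collagen of skin, stood at 56.4, 86.4 and 130.5 CPM against 29.6, 20.1 and 31.6 CPM (log2 fold change -1.75 ± 0.38, edgeR adjusted p = 0.0161). It lost its call without ad libitum replicate 2 or 3 or restricted replicate 1 (adjusted p up to 0.131), and without restricted replicate 2 the collagen list had 6 falls. Without ad libitum replicate 2 or 3 or restricted replicate 1, Col4a2 was the only collagen called.

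The Col4a2 promoter is shown because the 2 collagen IV genes were lower fitted side by side and are transcribed away from a shared start region. It spans chr8:11312555-11312854 on the plus strand (RefSeq, GRCm38.p6), 5′ to 3′. Capitals mark the 22 bases from the Col4a2 start to the start of Col4a1 on the opposite strand, where the 2 annotated genes overlap.
Col4a2: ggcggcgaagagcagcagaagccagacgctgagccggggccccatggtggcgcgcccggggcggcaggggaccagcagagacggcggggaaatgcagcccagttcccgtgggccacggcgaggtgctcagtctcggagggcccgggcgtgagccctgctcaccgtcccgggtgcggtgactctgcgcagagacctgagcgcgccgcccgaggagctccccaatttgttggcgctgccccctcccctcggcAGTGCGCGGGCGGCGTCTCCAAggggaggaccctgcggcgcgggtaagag
The strand setting of the counting is not given in the sources used here, so reads of the overlap could count for either gene; the reads of a 3′ method fall mostly at the far ends of both.

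The matricellular and basement membrane list had 32 tested genes and also held the transcription factor Sox4. Sparc and Sox4 fell and Thbs1 rose, 25 were lower fitted and the median was -0.70. Apart from Sox4, Sparc was the only fall of this list. The list of 45 summed to 4141, 2984 and 3724 CPM of the library total against 1733, 4073 and 2284 CPM, which overlap through restricted replicate 2. Sparc, a collagen-binding glycoprotein of remodelling matrix, stood at 1057, 702 and 694 CPM against 332, 414 and 438 CPM (log2 fold change -1.05 ± 0.19, edgeR adjusted p = 0.00401). Sox4, a transcription factor of progenitor and tumour cells, stood at 261, 253 and 226 CPM against 90.9, 89.5 and 88.7 CPM (log2 fold change -1.46 ± 0.25, edgeR adjusted p = 0.00199). The restricted libraries of Sox4 were nearly equal to each other and far below the ad libitum ones. Thbs1, a matrix protein that restrains vessel growth and is made by monocytes and platelets, went the other way, from 22.1, 6.65 and 13.4 CPM to 61.3, 67.5 and 78.2 CPM (log2 fold change 2.26 ± 0.51, edgeR adjusted p = 0.0216). It lost its call without ad libitum replicate 2 or 3 or restricted replicate 1 or 3 (adjusted p up to 0.146). Fibroblast markers had no common direction: of 18 tested Sparc fell and C3 rose, the median was 0.21, and the sums were 2915, 2077 and 2455 CPM against 1495, 3735 and 1840.2 CPM of the library total, with restricted replicate 2 highest of all. None of 21 matrix proteases and inhibitors was called by edgeR (1 higher and 1 lower at an unadjusted p under 0.05, 1 called by DESeq2; median -0.21). Without restricted replicate 2 the matricellular list had 4 falls, Sox4 among them.

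Igfbp3 was the 1 call among 14 genes of the insulin-like growth factor axis, which is known to respond to restriction. Igfbp3, the main carrier of IGF in blood, stood at 278, 150.3 and 359.7 CPM against 53.7, 43.5 and 112 CPM (log2 fold change -1.92 ± 0.39, edgeR adjusted p = 0.0163). All restricted libraries were below the lowest ad libitum library, and the mean in mice of 5 months was 59.5 ± 27.2 CPM (SD, n = 3). The call was lost without ad libitum replicate 3 or restricted replicate 1 or 2 (adjusted p up to 0.121). The list median was 0.16, and it turned negative without ad libitum replicate 2 or restricted replicate 2, at a lowest of -0.08. In the senescence list of 16, Igfbp3 fell and Ccl2 rose, at a median of 0.07.

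Genes with very long transcripts were among the falls. Syne1 encodes nesprin-1, a giant protein that ties the nucleus to actin. Its longest annotated transcript has 27.9 kb, and it stood at 237, 273 and 191 CPM against 89.8, 83.7 and 95.7 CPM (log2 fold change -1.38 ± 0.26, edgeR adjusted p = 0.00514). Dst encodes dystonin, a linker of cytoskeletal filaments with a transcript of 23.3 kb; it stood at 558, 765 and 635 CPM against 312, 200.5 and 365 CPM (log2 fold change -1.16 ± 0.22, edgeR adjusted p = 0.00574). In both genes the groups were apart. The microtubule guide Nav1 (13.1 kb), the dystrophin relative Utrn (12.4 kb), the inositol transporter Slc5a3 (10.9 kb), the heterochromatin protein Cbx5 (8.80 kb), the replication timing factor Rif1 (8.51 kb) and the ubiquitin ligase Ttc3 (8.30 kb) fell too, with log2 fold changes between -1.46 (Slc5a3) and -0.93 (Ttc3). Slc5a3 overlaps Mrps6 on the same strand, so reads of the pair may be shared. The other falls with no list were the actin-binding caldesmon Cald1 (-0.82), the membrane-to-actin linker Msn (-0.76), the splicing factor Zranb2 (-1.21) and the intermediate filament Nes, which stood at 35.2, 14.6 and 26.8 CPM against 0, 0 and 4.39 CPM. All falls of this paragraph other than Syne1 lost their call without ad libitum replicate 2, and all other than Syne1, Dst and Cald1 without restricted replicate 1, with adjusted p up to 0.0554 for Dst and 0.3 for Msn. Nes kept its call in 5 of 18 alternatives (adjusted p up to 0.214).

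The median longest transcript was 4.79 kb for genes that fell, 2.16 kb for genes that rose and 3.48 kb for all tested genes. In 5 equal bins of the tested genes from shortest to longest transcript the median log2 fold change was 0.14, 0.12, 0.03, -0.09 and -0.23. The falls numbered 3, 4, 4, 3 and 12 in those bins and the rises 28, 16, 11, 7 and 5. Genes of the longest bin took 16%, 18.5% and 16.8% of the non-mitochondrial counts in the ad libitum libraries and 13.7%, 13.7% and 14.1% in the restricted libraries, with the young libraries at 13.6%, 14.2% and 15%. The groups of 20 months did not overlap. Across 8946 genes, which are not independent replicates, Spearman's rho between transcript length and log2 fold change was -0.20. When each library's trend on transcript length was taken out as an offset, an alternative chosen after seeing the data, 82 genes were called and 73 of them were among the 93. The 20 that lost their call were Ccl2, Cfp, Cst3, Ctsd, Dynlt1b, Hp, Krtdap, Lamp1, Lamtor1, Man2b1, Mgst1, Npc2, Socs3 and Zfp36 among the rises and Nav1, Nes, Rif1, Slc5a3, Ttc3 and Utrn among the falls. Syne1, Dst and Cbx5 kept it. RNA quality is not given per library in the sources used here, and its part in the length trend was not tested.

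**Figure D3:**
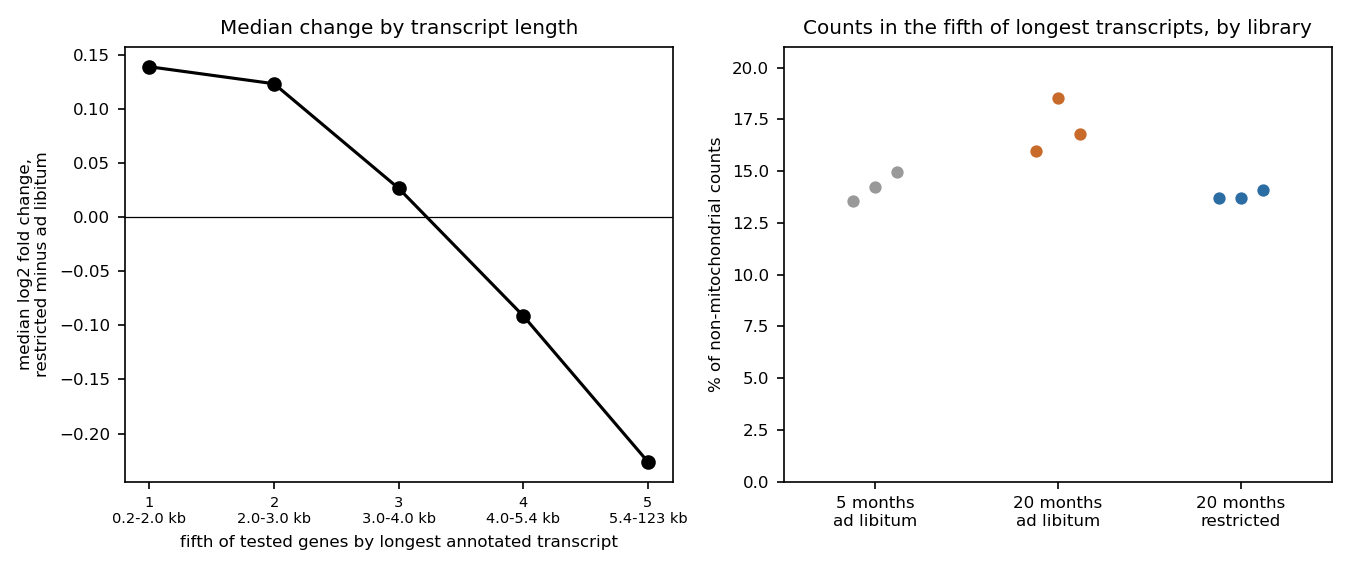
Left, the median log2 fold change (restricted minus ad libitum) of tested genes in 5 equal bins by the longest annotated transcript, in kb. Right, the percent of non-mitochondrial counts in the longest bin, one point a library; the ad libitum libraries of 20 months lie at 16% to 18.5% and the restricted ones at 13.7% to 14.1%.

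Glycolysis and hypoxia genes were mostly lower fitted, while the hypoxia factor itself rose. Of 30 tested genes Hif1a rose, 25 were lower fitted and the median was -0.43. Hif1a encodes the oxygen-regulated subunit of the transcription factor HIF-1, which is controlled mainly by protein stability. It stood at 17.1, 16 and 9.75 CPM against 55.9, 56.5 and 49.2 CPM (log2 fold change 1.90 ± 0.43, edgeR adjusted p = 0.022), with both groups tight and apart, and it lost its call without ad libitum replicate 2 or 3 or restricted replicate 1 or 3 (adjusted p up to 0.11). Hk2, the inducible hexokinase of tumours, stood at 174, 187 and 171 CPM against 104, 72 and 77.3 CPM (log2 fold change -1.08 ± 0.28, edgeR adjusted p = 0.0519). Pfkl, a phosphofructokinase, stood at 85.5, 117 and 109.7 CPM against 46, 39.6 and 58 CPM (edgeR adjusted p = 0.106). Neither passed, and neither overlapped.

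Lipid synthesis gave 1 call. Fads2, the delta-6 desaturase of polyunsaturated fatty acids, stood at 117, 198 and 151 CPM against 83.2, 76.6 and 65 CPM (log2 fold change -1.05 ± 0.25, edgeR adjusted p = 0.0339), and leaving out any library but ad libitum replicate 1 or restricted replicate 2 ended the call (adjusted p up to 0.229). Of 36 synthesis genes 25 were lower fitted, at a median of -0.24. Srebf2, the regulator of cholesterol synthesis, stood at 112, 130.3 and 117 CPM against 55.9, 58.4 and 74.7 CPM (edgeR adjusted p = 0.116). Cholesterol efflux and lipid handling genes, 22 tested, leaned the other way, at a median of 0.68 with 1 call, Npc2. Npc2 kept its call in 7 of 18 alternatives (adjusted p up to 0.259). The list had 3 rises without ad libitum replicate 1. Without restricted replicate 2 it had 3 rises and 1 fall, and it had no call when any other library was left out. Of 26 genes of the integrated stress response and serine synthesis Mthfd2, a mitochondrial enzyme of one-carbon metabolism, fell, at 81.5, 153 and 157 CPM against 61.3, 54.5 and 46.6 CPM (log2 fold change -1.27 ± 0.31, edgeR adjusted p = 0.0445). That call was kept only without ad libitum replicate 1 among the fits that left out a library (adjusted p up to 0.215).

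Respiration and fatty acid oxidation showed no call by edgeR or DESeq2, with 6 higher and 3 lower, and 3 higher, at an unadjusted p under 0.05. The 76 nuclear respiratory chain genes had a median of 0.07, and the 31 genes of fatty acid oxidation and ketone use had one of 0.13. The 13 mitochondrially encoded genes had 1 lower at that p and a median of -0.02. The respiratory median was -0.11 without the length trend, and that of fatty acid oxidation was -0.02 without restricted replicate 2, so neither direction was stable. Acat1, a thiolase of ketone use, stood at 22.1, 35.9 and 47.6 CPM against 50.4, 87.6 and 81.7 CPM (edgeR adjusted p = 0.215).

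Among 82 ribosomal protein genes Rpl35 and Rps27 fell, at a list median of 0.07 that turned to -0.10 without the length trend and to -0.01 without restricted replicate 2. Rpl35, a protein of the large subunit, stood at 1607, 1391 and 1488 CPM against 1004, 686 and 1032 CPM (log2 fold change -0.72 ± 0.16, edgeR adjusted p = 0.0213), and lost its call when any ad libitum library or young replicate 2 was left out (adjusted p up to 0.116). Rps27 stood at 754, 596 and 219 CPM against 1.10, 5.84 and 1.76 CPM, the steepest fall of the comparison, but it has a near-identical copy, Rps27rt, and its fall is uncertain. Summed, the pair stood at 2243, 1825 and 2028 CPM of the library total against 1525, 2163 and 1651 CPM, which overlap. Hmgn2, a nucleosome-binding protein that was called higher (7.04, 13.3 and 15.9 CPM against 217, 66.8 and 60.6 CPM), has a pseudogene copy. The sum of that pair was 72.3 ± 5.57 CPM against 161 ± 32.9 CPM (SD, n = 3), and the share that belongs to Hmgn2 is uncertain. Hmgn2 lost its call without ad libitum replicate 1 or 2 (adjusted p up to 0.12). Dynlt1b, a dynein light chain called higher (23.1, 37.2 and 58.5 CPM against 125, 114 and 111 CPM), lost its call without ad libitum replicate 1 or 2 or restricted replicate 1 or 3; it has 3 near-identical copies, and the sum of the 4 was 110 ± 28.7 CPM against 193 ± 5.64 CPM (SD, n = 3). The 1 predicted gene model called lower overlaps Nme1 and Nme2 on the same strand, and the sum of these 3 was 928 ± 94.4 CPM against 1158 ± 704 CPM (SD, n = 3).

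Cell division genes were near the median of all genes. None of 36 replication genes and none of 42 mitosis genes was called by edgeR (1 mitosis gene by DESeq2; 1 replication gene lower, and 1 mitosis gene higher and 3 lower, at an unadjusted p under 0.05), at medians of 0.19 and 0.09; the second turned to -0.01 without restricted replicate 2. Of 12 genes of the G1 cyclins and their inhibitors Ccnd1, the cyclin D1 that carries growth signals into the cell cycle, fell from 318, 467 and 427 CPM to 197, 279 and 211 CPM (log2 fold change -0.81 ± 0.21, edgeR adjusted p = 0.0498). The call was kept only without ad libitum replicate 1 or restricted replicate 2 among the fits that left out a library, and in 7 of 18 alternatives in all (adjusted p up to 0.255). Cenpe, a kinetochore motor, stood at 146, 195 and 169 CPM against 77.8, 78.5 and 105 CPM (edgeR adjusted p = 0.0641). Splicing regulators of the cyclin L, CLK and SR families, 28 tested, had no call by edgeR (9 lower at an unadjusted p under 0.05, 1 called by DESeq2) and 22 lower fitted, at a median of -0.36. Chaperones also gave no call by edgeR (1 by DESeq2; 6 higher and 5 lower at an unadjusted p under 0.05 over the 3 lists): 31 heat shock genes had a median of -0.22, 28 endoplasmic reticulum chaperones one of 0.13 and the 8 CCT subunits one of 0.24. Proteasome subunits (31 tested), S100 proteins and annexins (17) and tubulins (10) had no call by edgeR or DESeq2 (4 higher and 2 lower at an unadjusted p under 0.05 over the 3 lists) and medians of 0.11, 0.29 and -0.06. Without restricted replicate 2 the proteasome median was -0.01, and without ad libitum replicate 1 the tubulin median was 0.07.

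**Figure D4:**
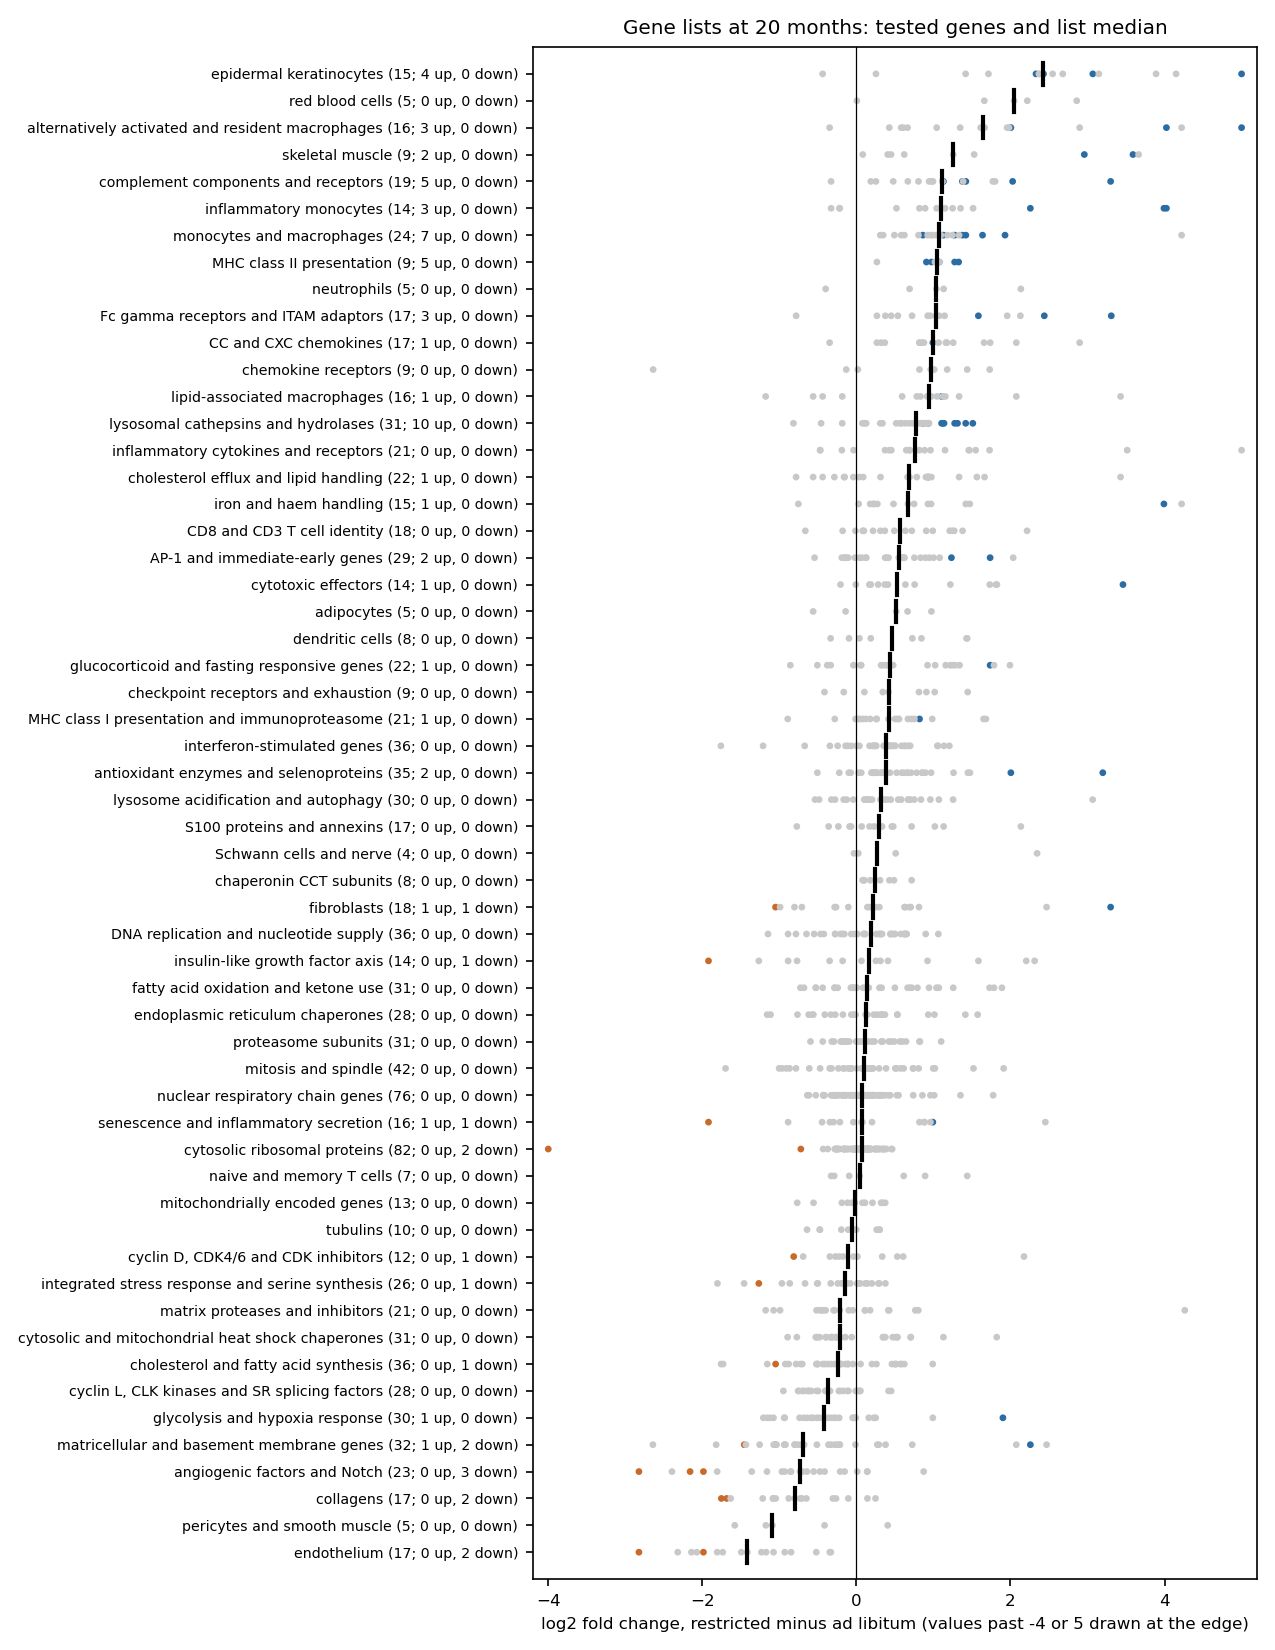
Each line is a gene list with at least 3 tested genes, ordered by its median; dots are the log2 fold changes (restricted minus ad libitum) of its genes, blue called higher, orange called lower, grey not called, and the black bar is the list median. Values past -4 or 5 are drawn at the edge; the list of keratinocyte genes has the highest median, at 2.43, and that of endothelium the lowest, at -1.42.

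T cell genes gave 1 call. Klrk1 encodes NKG2D, an activating receptor of CD8 T cells and NK cells. It stood at 3.02, 3.99 and 1.22 CPM with ad libitum feeding and at 65.7, 13.6 and 15.8 CPM with restriction (log2 fold change 3.46 ± 0.78, edgeR adjusted p = 0.022), on 3, 3 and 1 counts in the ad libitum libraries, and was lost without ad libitum replicate 2 or 3 or restricted replicate 1 (adjusted p up to 0.366). Restricted replicate 1 was far above the other restricted libraries. Of 14 cytotoxic genes 12 were higher fitted at a median of 0.52, and the list summed to 942, 241 and 401 CPM against 827, 562 and 641 CPM, with overlap. None of 18 identity genes was called by edgeR or DESeq2 (1 higher at an unadjusted p under 0.05; 15 higher fitted, median 0.56), none of 9 checkpoint genes (0 at that p; median 0.42) and none of 7 naive and memory genes (0 at that p; median 0.04, turning to -0.13 without the length trend). Cd8a stood at 59.4, 5.32 and 39 CPM against 51.5, 33.1 and 46.6 CPM (log2 fold change 0.31 ± 0.74, edgeR adjusted p = 0.922); without ad libitum replicate 2, which had 4 counts, it was -0.18. Gzmb, the killer protease granzyme B, stood at 39.2, 0 and 43.9 CPM against 72.3, 18.2 and 42.2 CPM (edgeR adjusted p = 0.872). Pdcd1, the PD-1 receptor, stood at 43.3, 0 and 12.2 CPM against 43.8, 14.3 and 43 CPM (edgeR adjusted p = 0.831). Within the ad libitum group these genes ran from 0 or a few counts in replicate 2 to levels like those of restricted mice. Lag3, Tox and Tcf7, with 0 to 13 counts in single libraries, were too low to test. Genes of other lymphoid and stromal cells were few: none of 2 CD4 T cell, 2 NK and gamma-delta T cell, 1 mast cell, 5 adipocyte, 4 Schwann cell and 2 platelet genes tested was called by edgeR, with 1 NK cell gene at an unadjusted p under 0.05 and called by DESeq2.

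Some markers of skin and muscle rose in restricted mice. Of 15 tested keratinocyte genes Krt10, Krtdap, Lgals7 and Calm4 rose, 14 were higher fitted and the median was 2.43. Krt10, a keratin of differentiating epidermis, stood at 10.1, 14.6 and 30.5 CPM against 69, 149 and 76.4 CPM (log2 fold change 2.43 ± 0.49, edgeR adjusted p = 0.00953). Krtdap, a secreted peptide of the same layer, stood at 0, 14.6 and 19.5 CPM against 69, 129.8 and 79.9 CPM (edgeR adjusted p = 0.0481), and Lgals7, an epidermal galectin, at 7.04, 21.3 and 23.2 CPM against 69, 134 and 52.7 CPM (edgeR adjusted p = 0.022). Calm4, an epidermal calcium sensor, had 0 counts in the ad libitum libraries and 87 counts over the restricted ones, at least 20.7-fold higher (edgeR adjusted p = 0.0308). Restricted replicate 2 was the highest library for each of the 4, and no keratinocyte gene was called without it or without ad libitum replicate 2, with 1 called without ad libitum replicate 3 or restricted replicate 1. The list of 25 summed to 579, 486 and 635 CPM against 507, 1723 and 799.6 CPM of the library total, which overlap.

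Of 9 tested muscle genes Myh1 and Trdn rose and all were higher fitted, at a median of 1.26. Myh1, a fast myosin heavy chain, stood at 2.01, 6.65 and 11 CPM against 99.7, 19.5 and 34.3 CPM (log2 fold change 2.96 ± 0.72, edgeR adjusted p = 0.0445). Trdn encodes triadin, of the calcium release complex of muscle, and stood at 1.01, 6.65 and 3.66 CPM against 85.4, 13 and 37.8 CPM (log2 fold change 3.59 ± 0.83, edgeR adjusted p = 0.0293). Restricted replicate 1 was highest for both, and neither was called without it, without restricted replicate 3 or without any one of the ad libitum libraries (adjusted p up to 0.598 for Myh1 and 0.492 for Trdn). The muscle list summed to 153, 246 and 241 CPM against 819, 323 and 374 CPM. The globin genes have near-identical copies: Hba-a1 and Hba-a2 together stood at 44.3 ± 10.6 CPM against 169 ± 70.7 CPM, and Hbb-bs and Hbb-bt together at 26.9 ± 16.3 CPM against 116 ± 42.7 CPM of the library total (SD, n = 3). Genes of B cells and of colon epithelium were all too low to test, and the epithelial list summed to 13.7 to 60.4 CPM in the 6 libraries. That list holds epithelial markers and does not measure the number of MC38 cells. The part of tumour cells in the levels of other genes was not tested. How skin, muscle or blood came into the recovered cells was not tested.

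**Figure D5:**
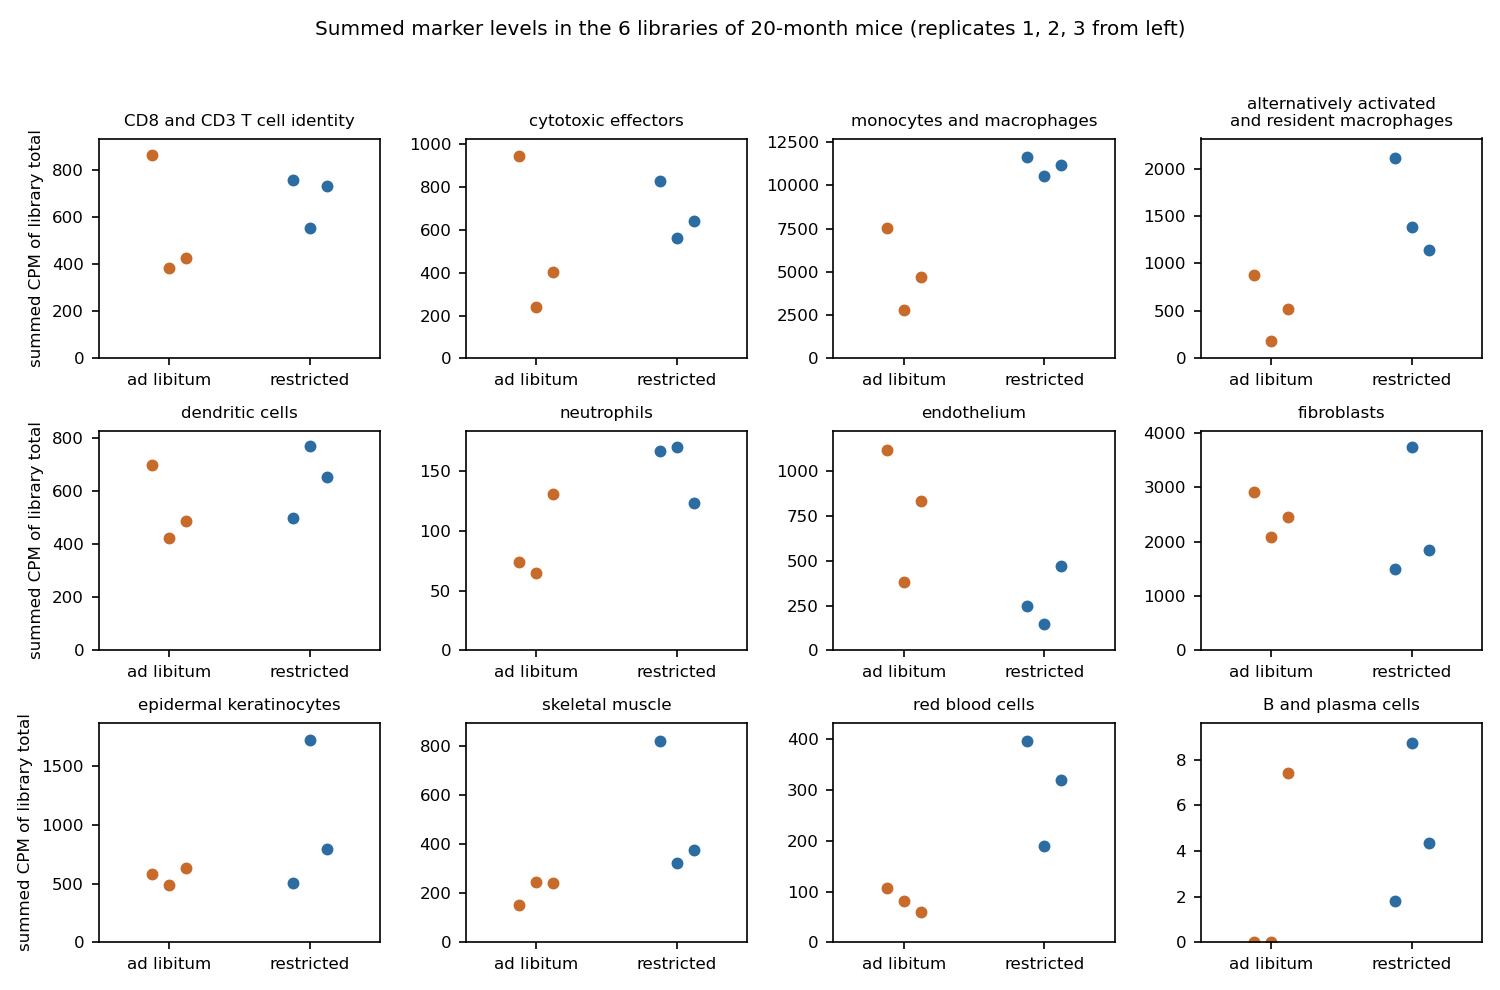
Summed CPM (of the library total) of 12 cell type lists in the 6 libraries of 20-month mice, one point a library, replicates 1 to 3 from left to right within a group; each y axis starts at 0. The macrophage sums are higher in all restricted libraries (10560.4 to 11656 against 2800 to 7506 CPM), and the T cell identity sums overlap (557 to 760 against 385 to 867 CPM).

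The remaining rises stood in no list, 24 in all with the Hmgn2 and Dynlt1b genes given above. Several are known from myeloid cells. Clec7a, the fungal beta-glucan receptor dectin-1, stood at 44.3, 41.2 and 20.7 CPM against 109.5, 143 and 103 CPM (log2 fold change 1.74 ± 0.36, edgeR adjusted p = 0.0129). Pld4, an exonuclease that digests nucleic acids in endolysosomes, stood at 25.2, 23.9 and 43.9 CPM against 128, 112 and 88.7 CPM (log2 fold change 1.82 ± 0.35, edgeR adjusted p = 0.00646). In both genes the lowest restricted library was well above the highest ad libitum one. Clec7a lost its call without ad libitum replicate 3 (adjusted p up to 0.0962), and Pld4 without ad libitum replicate 2 or restricted replicate 1 (adjusted p up to 0.0583). Mpeg1 encodes perforin-2, a pore-forming protein of phagocytes, and stood at 71.4, 35.9 and 91.4 CPM against 186, 134 and 152 CPM (edgeR adjusted p = 0.0471). Pirb, an inhibitory receptor that binds MHC class I, stood at 16.1, 2.66 and 7.32 CPM against 52.6, 44.1 and 50.9 CPM (edgeR adjusted p = 0.0361). Both lost their calls in at least 5 of the 9 fits that left out a library, with adjusted p up to 0.255 for Mpeg1 and 0.193 for Pirb.

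Alox5ap encodes FLAP, the protein that presents arachidonic acid to 5-lipoxygenase, and stood at 33.2, 18.6 and 51.2 CPM against 139, 68.8 and 128 CPM (log2 fold change 1.69 ± 0.39, edgeR adjusted p = 0.0253). Cyp4f18, a cytochrome P450 of myeloid cells that inactivates leukotriene B4 in mice, stood at 40.3, 21.3 and 26.8 CPM against 149, 66.8 and 138 CPM (log2 fold change 1.98 ± 0.40, edgeR adjusted p = 0.00953). The groups of both were apart, with restricted replicate 2 the lowest of its group. Alox5ap lost its call without ad libitum replicate 1 or 2 or restricted replicate 1 or 3 (adjusted p up to 0.184), and Cyp4f18 without ad libitum replicate 2 or 3 or restricted replicate 1 or 3 (adjusted p up to 0.0956).

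Several membrane proteins outside the lists gave stable calls. Itm2b, a transmembrane protein that binds the amyloid precursor, stood at 398, 249 and 339 CPM against 837, 718 and 795 CPM (log2 fold change 1.25 ± 0.20, edgeR adjusted p = 0.00153). Serinc3, a multipass membrane protein known to limit the infectivity of retroviruses, stood at 231, 197 and 284 CPM against 683, 520.4 and 541 CPM (log2 fold change 1.29 ± 0.21, edgeR adjusted p = 0.00153). Ly6a encodes Sca-1, a surface protein that interferon induces in lymphoid and stromal cells, and stood at 209, 106 and 201 CPM against 554, 340.0 and 485 CPM (log2 fold change 1.41 ± 0.25, edgeR adjusted p = 0.00235). In all of these the restricted libraries lay above every ad libitum library by a wide margin. Tmem86a, an enzyme that breaks down lysoplasmalogen lipids, stood at 13.1, 1.33 and 11 CPM against 111, 37.6 and 93.1 CPM (log2 fold change 3.18 ± 0.56, edgeR adjusted p = 0.00279), and restricted replicate 2 was the lowest of its group. Each of Itm2b, Serinc3, Ly6a and Tmem86a was called in all 18 alternatives.

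The other rises with no list differ in function. Socs3, a feedback inhibitor of cytokine receptors, stood at 137, 125 and 106 CPM against 257, 199 and 247 CPM (log2 fold change 0.93 ± 0.24, edgeR adjusted p = 0.0499). Idh1, the cytosolic isocitrate dehydrogenase, which makes NADPH, stood at 19.1, 5.32 and 8.53 CPM against 61.3, 54.5 and 39.5 CPM (log2 fold change 2.19 ± 0.51, edgeR adjusted p = 0.0297). Pfn1, the actin monomer binder profilin, stood at 72.5, 57.2 and 92.7 CPM against 177, 286 and 127 CPM (log2 fold change 1.41 ± 0.31, edgeR adjusted p = 0.0213). None of these overlapped between the groups. Lsp1, an actin-binding protein of leukocytes, rose by 1.45 on the log2 scale, and Fgl2, a fibrinogen-like protein of immune cells, by 1.51. Lamtor1, which anchors the mTORC1 activator Ragulator to lysosomes, rose by 1.30, and Tent5a, a poly(A) polymerase, by 1.38. Cst6, a cysteine protease inhibitor of skin, rose by 1.64, and Gda, guanine deaminase, by 2.53. Scamp1, a membrane protein of recycling vesicles, rose by 2.70, Rassf4, a Ras association domain protein, by 2.83, and Mgst1, a microsomal glutathione transferase, by 3.68. Scamp1, Rassf4 and Mgst1 were low in ad libitum libraries, at 0 to 9.06 CPM. Each of these 12 genes lost its call without restricted replicate 1, and each other than Mgst1 without ad libitum replicate 2. Socs3 and Lamtor1 kept their calls in 6 of 18 alternatives and Rassf4 and Mgst1 in 8, with adjusted p up to 0.227, 0.262, 0.372 and 0.236 in that order.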

How the data were processed

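Messenger RNA of cells recovered with CD8a beads from MC38 tumours was sequenced from the 3′ end in 9 libraries. The authors deposited raw counts per gene in one table; the submitters' processing notes name Trim Galore, STAR, featureCounts and GRCm38 (mm10), and versions, the strand setting and the handling of duplicate reads are not given in the sources used here. Genes were tested with edgeR 4.0.16 in R 4.3.3: TMM scaling, a model with one mean for each of the 3 groups, robust quasi-likelihood dispersion, the contrast of restricted minus ad libitum mice of 20 months, and Benjamini-Hochberg adjustment over 8956 genes (threshold 0.05, any fold). SE is the size of the log2 fold change divided by the square root of F. Per the labels' design text the replicates are independent; the sources used here do not say whether animals were pooled. Totals of 810662 to 1258575 counts per library limit the precision of low genes, and floors cover counting error only.

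The 62 gene lists were matched by symbol (1406 of 1419 symbols directly, 6 by an older symbol). The members and lists were chosen with earlier results of these data known. A gene can stand in several lists and is then counted in each. Named genes are those called (predicted gene models left out; 1 called gene is not reported here), the 4 genes of each list with the smallest unadjusted p that the text needs, and fixed T cell genes. Levels are TMM-scaled CPM, and list sums are CPM of the library total. The alternatives were other scalings, filters and tools (DESeq2 1.42.0), the 6 libraries of 20-month mice alone, a replicate block, each library left out, and transcript length. The edgeR code was tested on simulated counts. Promoter letters come from RefSeq tables of GRCm38.p6, and gene coordinates of the table are not printed.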

Additional observations from a re-analysis of the deposited data

How the results depend on the processing

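Against 67 genes higher and 26 lower, library totals as the scaling gave 38 and 16, the 6 libraries of 20-month mice alone 41 and 13, DESeq2 108 and 64, and no filter on low counts 158 and 66. Leaving out one library gave 18 to 100 higher and 9 to 48 lower, fewest without ad libitum replicate 2 and most without restricted replicate 2. Of 1656 values of called genes under the alternatives, 1185 stayed past the threshold, 471 missed it and 0 changed sign. The median log2 fold change of all genes was 0.016 with library totals and -0.0025 with DESeq2 size factors, against 0.0011. With the length trend removed it was -0.037.

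Whether replicate numbers pair these libraries is not settled here. Deviations of same-numbered libraries correlated weakly, at -0.03 to 0.08. Of 9 libraries, 7 correlated best with one of their own number. The candidates were all libraries of the other 2 groups, most of which carry another number. The main fit has no term for the replicate number. A replicate block gave 96 higher and 38 lower. Of the called genes 2 missed the threshold with the block: the log2 fold change of Myh1 was 2.71 (edgeR adjusted p = 0.0736) and the log2 fold change of Trdn 3.30 (edgeR adjusted p = 0.0616).

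Sign changed for uncalled T cell genes with few counts. With one library left out, the log2 fold change of Cd8a ran from -0.18 to 0.95, the log2 fold change of Cd8b1 from -0.15 to 1.54 and the log2 fold change of Ifng from -0.22 to 1.01. The log2 fold change of Prf1 ran from -0.51 to 2.58; it was 0.0019 by DESeq2, 0.0095 with no filter and 0.73 with the block, against -0.0072. The log2 fold change of Cd3g ran from -0.48 to 0.75; it was 0.0096 with no filter and 0.45 with the block, against -0.01. For each the cause was not tested. Library totals limit the precision of these genes of few counts.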
